A study of Oryctolagus cuniculus with 16 samples.

Results

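Described here are the genes of the glutathione, thioredoxin and antioxidant enzyme systems in rabbit bone healing around copper and titanium implants. Members were found by gene symbol: the glutathione S-transferases (GST and MGST), glutathione peroxidases (GPX), peroxiredoxins (PRDX), symbols that begin with TXN, superoxide dismutases (SOD), glutaredoxins (GLRX), the glutathione synthesis and recycling enzymes GCLC, GCLM, GSS and GSR, the quinone reductases NQO1 and NQO2, sulfiredoxin (SRXN1), catalase (CAT), and the regulators KEAP1 and NFE2L2. The rule matched 44 of the 29587 genes of the deposited table, of which 14537 carry a symbol, and it used no measured value. Of the 44 members, 36 had enough counts to be tested and 8 did not: GPX2, GPX5, GPX6, GSTO2, GSTT4, TXNDC8, TXNL4B and TXNRD3. GPX5, GPX6 and GSTT4 had 0 counts in all 16 libraries, and GPX2, GSTO2, TXNDC8, TXNL4B and TXNRD3 stayed at or below 0.976 CPM (counts scaled to a common library size), the level of TXNL4B in Turned Cu 2. Family members without a matching symbol in the table are not analysed here, apart from GPX1, GPX3 and SOD3, which are described as non-members.

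Each of 4 rabbits (Oryctolagus cuniculus) contributed 4 sites in the tibiae, and each site gave 1 library of total RNA from tissue scraped out of the drilled hole 10 days after surgery. In the Turned Cu group the site held a turned copper implant. In the SLA Ti group it held a titanium implant whose surface had been sandblasted with large grit and acid-etched, and in the Turned Ti group a turned implant of commercially pure titanium. The Sham site is labelled only as such, with no implant named for it. Every group has 4 libraries, numbered 1 to 4 by rabbit, and every group has 2 proximal and 2 distal sites. The sources used here name no strain, age or sex. The protocol describes scraping drilled holes throughout, so no group stands for undisturbed bone.

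Glutathione is a tripeptide made by glutamate-cysteine ligase (GCLC and GCLM) and glutathione synthetase, and glutathione reductase keeps it in its reduced form with NADPH. Thioredoxin, with thioredoxin reductase, is the parallel NADPH-driven system: it reduces peroxiredoxins and other proteins, and TXNIP binds and inhibits it. The transcription factor NFE2L2 (NRF2), held in check by KEAP1, switches on many of these genes when electrophiles or oxidants modify KEAP1. Copper ions take part in redox cycling and bind thiols, and the dismutase SOD1 is itself a copper and zinc enzyme.

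The table held between 8539984 and 20406474 counts per library. Of all counts not on ribosomal RNA, mitochondrial transcripts took 93.9% and 92.6% in Turned Cu 2 and 4, the proximal copper sites, 81.3% and 74.5% in Turned Cu 1 and 3, and 59.0% to 85.8% in the other 12 libraries. Nuclear protein-coding genes held from 965804 to 3960681 counts per library. Ribosomal RNA took 65.3% of the counts in Sham 2, 49.6% in Turned Ti 4 and 44.8% in SLA Ti 4. Bone markers were found in every group, at levels that differed: summed osteoblast and bone matrix markers (13 of 15 listed genes in the table) reached 395 to 2782 CPM in Turned Cu, 1903 to 12800 in SLA Ti, 6704 to 22450 in Turned Ti and 8467 to 22370 in Sham. As these are bulk samples, fewer cells of a type and less RNA per cell cannot be told apart.

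Around copper, a large part of the thiol system was higher, led by thioredoxin, its reductase, its inhibitor TXNIP, sulfiredoxin, glutamate-cysteine ligase, glutathione reductase and the transferases MGST1 and GSTO1, while peroxidases of the endoplasmic reticulum were lower. With edgeR's quasi-likelihood test and an adjusted p under 0.05 over all 11617 genes tested, 19 of 36 members were higher, 7 were lower and 10 did not pass in Turned Cu against Sham. Over all genes tested, 42.8% passed in either direction, 23.2% higher and 19.6% lower, so the 52.8% of members higher stood above the background and the 19.4% lower was near it. Against Turned Ti, 18 members were higher, 7 were lower and 11 did not pass, beside 40.7% of all genes in either direction, 21.1% higher and 19.6% lower. Against SLA Ti, 14 members were higher, 7 were lower and 15 did not pass, beside 31.0% of all genes in either direction, 15.3% higher and 15.7% lower. The median log2 fold change of the 36 members was 0.66 against Sham, 0.73 against Turned Ti and 0.48 against SLA Ti, where the medians of all genes were -0.06, -0.10 and -0.02. These 3 comparisons share the Turned Cu libraries, so their results are not independent of each other. Of the 36 members, 30 reached 10 counts in at least 3 libraries of every group, while GSTA4 did so only in Turned Ti, TXNDC16 only in SLA Ti and Turned Ti, GSTA5, GSTZ1 and TXNDC15 in every group but Turned Cu, and MGST1 in every group but Sham.

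All 4 Turned Cu libraries lay above all 4 Sham libraries for 17 members and below them for 7, where 21.8% and 18.4% of all genes did so. Against Turned Ti the numbers were 19 and 7 members, beside 19.0% and 16.3% of all genes, and against SLA Ti 12 and 4 members, beside 13.4% and 14.6%. MGST1 is among the 17 above Sham, and GSTA4, GSTA5 and GSTZ1 are among the 7 below. GSTA4, GSTA5 and TXNDC16 are among the 7 below Turned Ti, and GSTA4 is among the 4 below SLA Ti. Each passed the filter on low counts through groups where it is higher, so its place in these counts is a description. The members' summed level was 757 to 918 CPM in the Turned Cu libraries, 242 to 409 CPM in SLA Ti, 215 to 321 CPM in Turned Ti and 244 to 285 CPM in Sham. TXNIP alone made up much of the copper sum. Without it, the sums were 375 to 547 CPM in Turned Cu, 213 to 292 CPM in SLA Ti, 188 to 282 CPM in Turned Ti and 219 to 259 CPM in Sham, and the copper libraries still lay apart from the rest. CPM are on the library size after TMM scaling throughout, and they are compared between groups for the same gene.

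**Figure D1:**
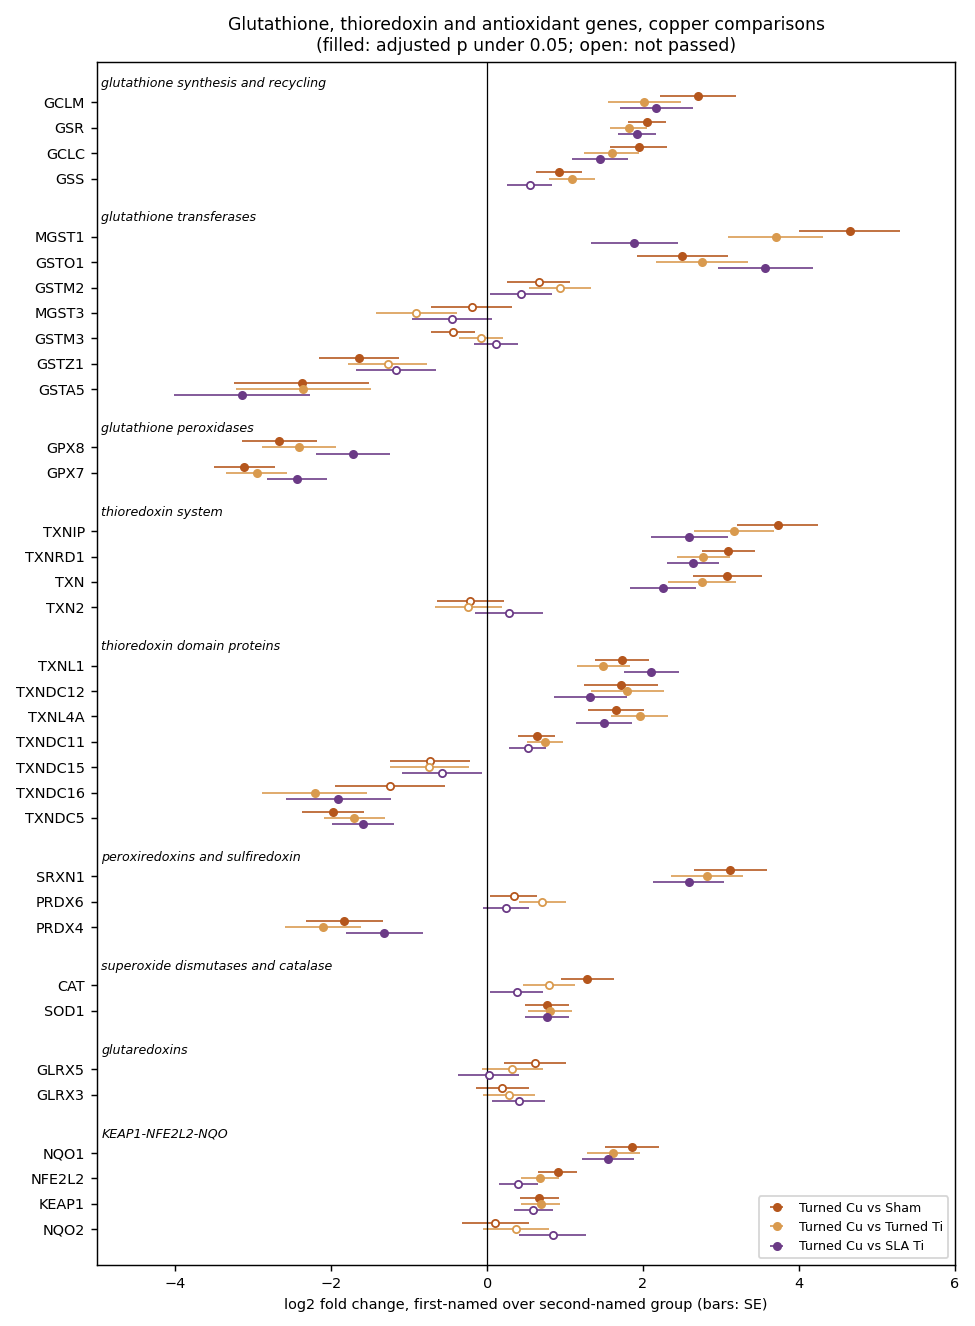
Log2 fold change (x axis, with its SE as a bar) of 35 of the 36 members tested in Turned Cu against Sham, Turned Ti and SLA Ti, grouped by role; filled points passed an adjusted p of 0.05. Glutathione synthesis and the thioredoxin system lie to the right of 0 except for TXN2, GPX7 and GPX8 lie to the left, and GSTA4, with 0 counts in Turned Cu, is left out because its fitted value is no bound.

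Cell type markers moved with copper too, and their part in the members' changes was not tested. Of all genes, 23.2% were higher and 19.6% lower in Turned Cu against Sham, and 21.1% and 19.6% against Turned Ti. Against SLA Ti these shares were 15.3% and 15.7%. Summed neutrophil markers (13 of 16 listed genes in the table) were 1286 to 2616 CPM in Turned Cu, 436 to 3150 CPM in SLA Ti, 307 to 1125 CPM in Turned Ti and 273 to 569 CPM in Sham. Of these 13, 10 were higher and 0 lower in Turned Cu against Sham, 8 and 2 against Turned Ti, and 0 and 2 against SLA Ti. Macrophage markers (13 of 14) summed to 702 to 1146 CPM in Turned Cu, 193 to 404 CPM in SLA Ti, 180 to 321 CPM in Turned Ti and 129 to 200 CPM in Sham. Of the 12 tested, 5 were higher and 0 lower against Sham, 4 and 0 against Turned Ti, and 4 and 3 against SLA Ti. Their median log2 fold changes were 0.99, 0.05 and 0.15 in that order, so the sum does not stand for the whole list. In the other direction, fibroblast markers (12 of 15) summed to 286 to 606 CPM in Turned Cu, 1433 to 5300 CPM in SLA Ti, 1096 to 6971 CPM in Turned Ti and 3147 to 4203 CPM in Sham, with MFAP4 at 0 in Turned Cu, and MFAP5 at 0 in Turned Cu and in Sham. Of the 11 tested, 10 were lower and 0 higher against Sham, 11 and 0 against Turned Ti, and 9 and 0 against SLA Ti. Of the 13 osteoblast and bone matrix markers, 12 were lower and 0 higher against Sham, 11 and 0 against Turned Ti, and 8 and 0 against SLA Ti. Endothelial markers (11 of 13) summed to 33.2 to 153 CPM in Turned Cu, 61.3 to 222 CPM in SLA Ti, 108 to 185 CPM in Turned Ti and 129 to 313 CPM in Sham, with CLEC14A and STAB2 at 0 in Turned Cu. Though these sums came near each other, 9 of the 11 tested were lower and 1 higher in each copper comparison. Their median log2 fold change was -3.90 against Sham, -3.34 against Turned Ti and -2.98 against SLA Ti. Erythroid markers (8 of 17) summed to 30.6 to 72.3 CPM in Turned Cu, 28.0 to 415 CPM in SLA Ti, 28.2 to 333 CPM in Turned Ti and 7.41 to 84.9 CPM in Sham. Adipocyte markers (7 of 11) summed to 12.3 to 53.7 CPM in Turned Cu, 39.4 to 468 CPM in SLA Ti, 46.2 to 76.2 CPM in Turned Ti and 56.1 to 109 CPM in Sham, and skeletal muscle markers (9 of 12) to 3.79 to 8.91 CPM in Turned Cu, 1.78 to 2.84 CPM in SLA Ti, 2.24 to 212 CPM in Turned Ti and 1.53 to 3.77 CPM in Sham.

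All 4 genes of glutathione synthesis and recycling were higher around copper than in Sham, and glutathione reductase (GSR) had the smallest p of them. Values for GSR were 12.1, 16.2, 13.0 and 13.1 CPM in Turned Cu 1 to 4, beside 3.80, 3.49, 3.19 and 3.81 CPM in SLA Ti, 3.91, 3.94, 3.98 and 3.57 CPM in Turned Ti and 2.80, 2.96, 4.78 and 2.57 CPM in Sham. All copper libraries lay above all others, and the 12 other libraries stayed between 2.57 and 4.78 CPM. The log2 fold change of GSR was 2.05 ± 0.25 against Sham, 1.81 ± 0.24 against Turned Ti and 1.92 ± 0.24 against SLA Ti (SE; edgeR adjusted p = 1.98e-05, 4.62e-05 and 9.52e-05). An unnamed gene on the opposite strand overlaps GSR and held 480 counts in all, against 1228 for GSR.

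GCLM, the modifier subunit that raises the efficiency of glutamate-cysteine ligase, was 6.50-fold higher than in Sham. Library by library, GCLM was at 6.32, 7.42, 8.79 and 7.92 CPM in Turned Cu, 2.11, 0.855, 1.70 and 2.13 CPM in SLA Ti, 1.16, 1.53, 1.51 and 3.48 CPM in Turned Ti and 0.715, 1.48, 0.367 and 2.09 CPM in Sham. The copper libraries did not overlap any other group, and Turned Ti 4 came nearest at 3.48 CPM. Its log2 fold change was 2.7 ± 0.49 against Sham, 2.01 ± 0.47 against Turned Ti and 2.17 ± 0.47 against SLA Ti (SE; edgeR adjusted p = 0.000318, 0.00244 and 0.0028). GCLC, the catalytic subunit and the rate-limiting enzyme of the pathway, moved the same way. The CPM of GCLC were 11.3, 7.61, 19.2 and 9.98 in Turned Cu, 6.18, 3.29, 2.72 and 5.56 in SLA Ti, 4.37, 2.61, 3.12 and 5.97 in Turned Ti and 2.56, 2.96, 3.98 and 3.02 in Sham. Copper stood above all other libraries, with Turned Cu 3 the highest at 19.2 CPM. The log2 fold change was 1.95 ± 0.36 against Sham, 1.60 ± 0.36 against Turned Ti and 1.45 ± 0.36 against SLA Ti (SE), and all passed (edgeR adjusted p = 0.000425, 0.00192 and 0.00635). Without Turned Cu 3 the call against SLA Ti was lost, at a log2 fold change of 0.94.

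GSS, glutathione synthetase, changed less. GSS had 8.90, 7.81, 5.86 and 6.89 CPM in Turned Cu 1 to 4, 6.79, 3.95, 4.99 and 4.42 CPM in SLA Ti, 3.20, 4.38, 3.30 and 2.90 CPM in Turned Ti and 3.40, 2.56, 6.00 and 3.46 CPM in Sham. Copper and Sham overlapped, through Sham 3 at 6.00 CPM. GSS was higher against Sham (0.92 ± 0.29, edgeR adjusted p = 0.0177) and Turned Ti (1.09 ± 0.29, adjusted p = 0.00674), and did not pass against SLA Ti (0.54 ± 0.29, adjusted p = 0.164; log2 fold change and SE). The call against Sham was lost when Turned Cu 1, Sham 1, Sham 2 or Sham 4 was left out, at 0.62 to 0.76.

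Genes of the thioredoxin system were higher around copper, except for the mitochondrial TXN2. TXNRD1, the cytosolic thioredoxin reductase and a selenoenzyme, had the smallest p of all members against Sham. Values for TXNRD1 were 36.3, 58.2, 39.0 and 28.9 CPM in Turned Cu 1 to 4, beside 6.10, 6.45, 9.82 and 3.58 CPM in SLA Ti, 6.18, 5.46, 7.32 and 4.73 CPM in Turned Ti and 2.80, 6.19, 5.08 and 4.99 CPM in Sham. The lowest copper library, at 28.9 CPM, stood above the highest of the other 12, at 9.82 CPM. TXNRD1 was 8.55-fold higher than in Sham, with log2 fold changes of 3.10 ± 0.35 against Sham, 2.77 ± 0.34 against Turned Ti and 2.64 ± 0.34 against SLA Ti (SE; edgeR adjusted p = 1.42e-05, 3.19e-05 and 9.84e-05).

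TXN, cytosolic thioredoxin, was 8.47-fold higher than in Sham. Library by library, TXN was at 53.3, 95.8, 68.4 and 76.4 CPM in Turned Cu, 9.90, 8.36, 29.2 and 14.2 CPM in SLA Ti, 17.0, 9.25, 11.6 and 5.56 CPM in Turned Ti and 7.63, 6.59, 13.7 and 6.71 CPM in Sham. No copper library overlapped another group, and the highest outside copper was SLA Ti 3 at 29.2 CPM. The log2 fold change was 3.08 ± 0.44 against Sham, 2.76 ± 0.43 against Turned Ti and 2.26 ± 0.42 against SLA Ti (SE; edgeR adjusted p = 5.26e-05, 0.00014 and 0.00115). TXNIP, which binds thioredoxin and also restrains glucose uptake, was higher as well. The CPM of TXNIP were 409, 219, 543 and 272 in Turned Cu, 52.5, 23.4, 117 and 46.0 in SLA Ti, 79.4, 25.1, 29.0 and 27.0 in Turned Ti and 29.3, 28.7, 26.1 and 24.8 in Sham. The distal copper sites, Turned Cu 1 and 3, were above the proximal ones, and all 4 were above the other 12 libraries, of which SLA Ti 3 at 117 CPM and Turned Ti 1 at 79.4 CPM were the highest. TXNIP had log2 fold changes of 3.73 ± 0.52 against Sham, 3.17 ± 0.51 against Turned Ti and 2.60 ± 0.50 against SLA Ti (SE; edgeR adjusted p = 4.68e-05, 0.000168 and 0.00127). At the 8 proximal sites alone, where copper and SLA Ti come from different rabbits, TXNIP did not pass against SLA Ti, at a log2 fold change of 1.26.

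TXN2, the mitochondrial thioredoxin, did not pass in any comparison. TXN2 had 1.44, 2.15, 0.509 and 2.93 CPM in Turned Cu 1 to 4, 0.921, 1.51, 1.44 and 1.83 CPM in SLA Ti, 1.55, 2.17, 2.58 and 1.82 CPM in Turned Ti and 2.32, 2.56, 1.90 and 1.33 CPM in Sham. The groups overlapped, and its log2 fold change was -0.22 ± 0.43 against Sham, -0.24 ± 0.43 against Turned Ti and 0.28 ± 0.43 against SLA Ti (SE; edgeR adjusted p = 0.715, 0.686 and 0.664). TXNRD3, a reductase best known from testis, stayed below 1 CPM in every library and was not tested.

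Peroxiredoxins reduce peroxides at a cysteine that can itself be over-oxidised, and sulfiredoxin (SRXN1) repairs it. Values for SRXN1 were 22.4, 12.9, 13.6 and 17.0 CPM in Turned Cu 1 to 4, beside 1.11, 1.58, 4.83 and 3.58 CPM in SLA Ti, 2.2, 3.00, 2.47 and 1.58 CPM in Turned Ti and 1.55, 0.673, 2.2 and 2.90 CPM in Sham. Again copper did not overlap the rest, where SLA Ti 3 was the highest at 4.83 CPM. SRXN1 was 8.68-fold higher than in Sham, with log2 fold changes of 3.12 ± 0.47 against Sham, 2.82 ± 0.46 against Turned Ti and 2.58 ± 0.45 against SLA Ti (SE; edgeR adjusted p = 7.51e-05, 0.00018 and 0.000726). PRDX6, a peroxiredoxin of the cytosol that also acts on phospholipids, did not pass. Library by library, PRDX6 was at 13.8, 14.8, 12.5 and 17.7 CPM in Turned Cu, 14.9, 8.62, 17.2 and 8.99 CPM in SLA Ti, 9.41, 10.6, 7.10 and 8.87 CPM in Turned Ti and 13.9, 6.86, 16.1 and 9.25 CPM in Sham. Copper and Sham overlapped, and the log2 fold change was 0.34 ± 0.30 against Sham, 0.71 ± 0.30 against Turned Ti and 0.24 ± 0.30 against SLA Ti (SE; edgeR adjusted p = 0.382, 0.0696 and 0.578). With the end of the tibia as a term it passed against Turned Ti, at 0.70 (adjusted p = 0.0271).

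**Figure D2:**
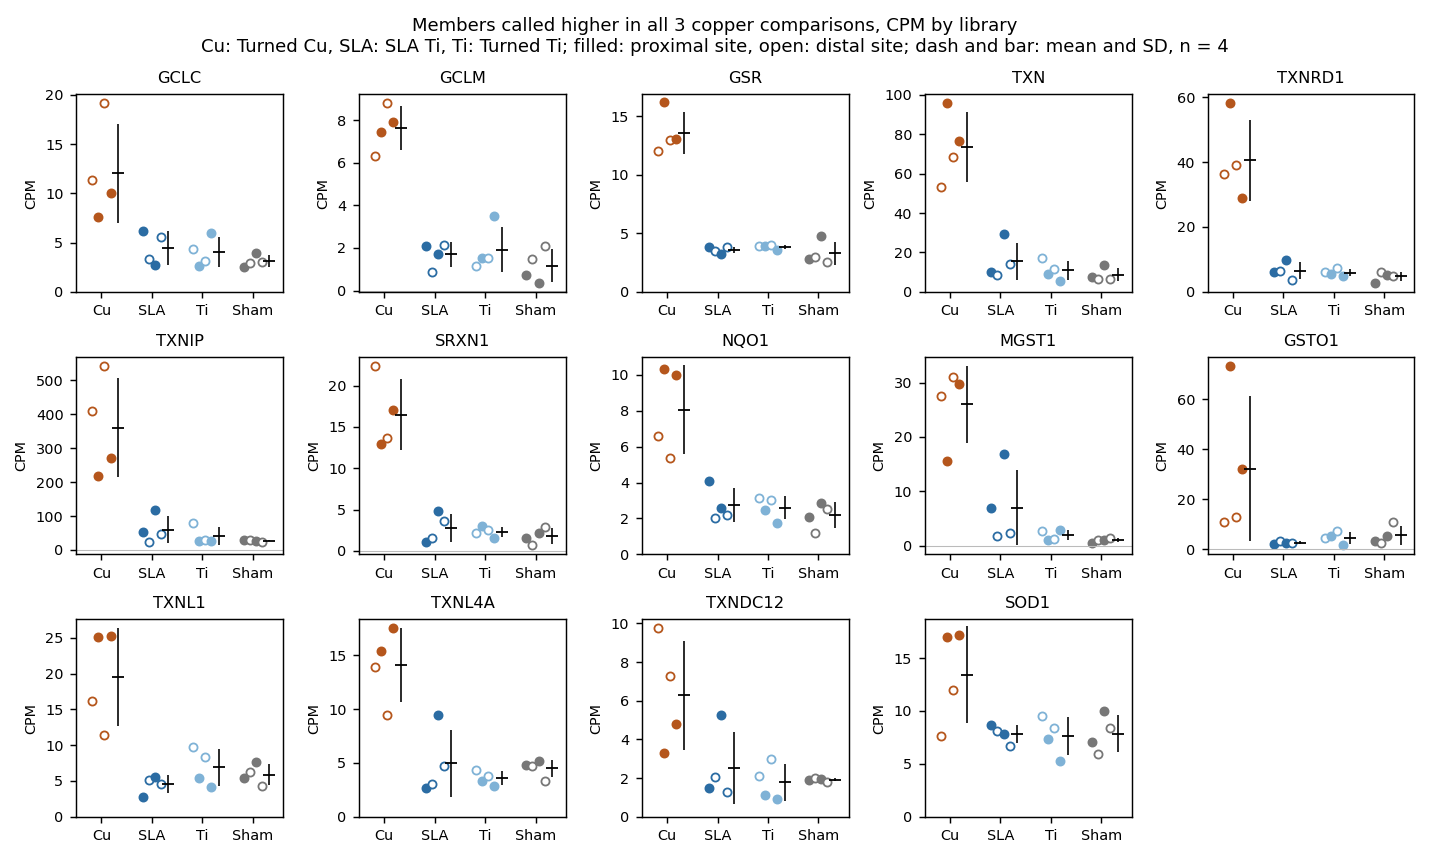
CPM (y axis, from 0) by library for the members higher in Turned Cu against Sham, Turned Ti and SLA Ti, with the mean and SD of each group of 4 beside its points; filled points are proximal and open points distal sites. TXNRD1 in copper sits between 28.9 and 58.2 CPM, above every other library, while SOD1 in Turned Cu 1, at 7.61 CPM, lies among the other groups.

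Glutathione transferases couple glutathione to electrophiles, and they split around copper: MGST1 and GSTO1 were higher, GSTA4, GSTA5 and GSTZ1 were lower, and GSTM2, GSTM3 and MGST3 did not pass against Sham. MGST1, a membrane transferase of the endoplasmic reticulum and outer mitochondrial membrane with peroxidase activity, had the largest log2 fold change of the members against Sham and Turned Ti. The CPM of MGST1 were 27.6, 15.6, 31.1 and 29.8 in Turned Cu, 6.95, 1.88, 16.9 and 2.44 in SLA Ti, 2.65, 1.08, 1.33 and 2.99 in Turned Ti and 0.477, 1.08, 1.04 and 1.49 in Sham. All copper libraries lay above Turned Ti and Sham, but SLA Ti 3, at 16.9 CPM, was above Turned Cu 2, at 15.6 CPM. MGST1 was 25.1-fold higher than in Sham, with log2 fold changes of 4.65 ± 0.65 against Sham, 3.70 ± 0.61 against Turned Ti and 1.89 ± 0.56 against SLA Ti (SE). The edgeR adjusted p was 0.000198 against Turned Ti and 0.0175 against SLA Ti. Only 2 Sham libraries reached 10 counts, so MGST1 passed the filter on low counts through the 3 groups where it is higher. Its value against Sham, counted above as higher, is a description and is given no p. The call against SLA Ti was lost when Turned Cu 1, 3 or 4, or SLA Ti 2 or 4, was left out, at 1.43 to 1.70, and without SLA Ti 3 it was 2.68.

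GSTO1, the omega-class enzyme that reduces mixed disulfides and dehydroascorbate, varied widely within copper. GSTO1 had 10.9, 73.4, 12.9 and 32.0 CPM in Turned Cu 1 to 4, 2.15, 3.29, 2.62 and 2.74 CPM in SLA Ti, 4.63, 5.17, 7.46 and 1.66 CPM in Turned Ti and 3.40, 2.69, 5.45 and 10.8 CPM in Sham. The proximal libraries Turned Cu 2 and 4 were far above the distal ones, and Turned Cu 1, at 10.9 CPM, was barely above Sham 4, at 10.8 CPM. Its log2 fold change was 2.51 ± 0.59 against Sham, 2.75 ± 0.59 against Turned Ti and 3.57 ± 0.61 against SLA Ti (SE; edgeR adjusted p = 0.00232, 0.0014 and 0.000645). Without Turned Cu 2 it was 1.56 against Sham, 1.84 against Turned Ti and 2.62 against SLA Ti, all past the threshold. Without Turned Cu 2 and 4 together, it was 1.01 against Sham and 1.28 against Turned Ti, neither past the threshold (edgeR adjusted p = 0.126 and 0.0575).

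GSTA4, the alpha-class enzyme that clears the lipid aldehyde 4-hydroxynonenal, had 0 counts in all 4 Turned Cu libraries. It had 45 counts over the SLA Ti libraries, 70 over Turned Ti and 44 over Sham. Set against a floor of 3 counts over the copper group, its level against Sham was at least 5.77-fold lower, against Turned Ti at least 6.59-fold lower and against SLA Ti at least 4.34-fold lower. GSTA4 passed the filter on low counts only through Turned Ti, so these bounds are a description, and its calls as lower are given no p. Without Turned Cu 3, the deepest copper library on protein-coding genes, these bounds were 4.01, 4.58 and 3.02. GSTA5, another alpha-class transferase, was also low. Values for GSTA5 were 0.287, 1.37, 0 and 3.10 CPM in Turned Cu 1 to 4, beside 23.6, 1.45, 11.7 and 3.35 CPM in SLA Ti, 7.57, 3.94, 4.52 and 7.21 CPM in Turned Ti and 6.08, 4.04, 9.25 and 4.10 CPM in Sham. Copper lay below Turned Ti and Sham, while SLA Ti 2 overlapped it and SLA Ti 1 and 3 were the highest of all. GSTA5 was lower by log2 fold changes of -2.38 ± 0.87 against Sham, -2.36 ± 0.86 against Turned Ti and -3.15 ± 0.87 against SLA Ti (SE). Only 1 Turned Cu library reached 10 counts, so GSTA5 passed the filter on low counts through the 3 groups where it is higher. These values, counted above as lower, are a description and are given no p. The call was lost against Sham without Turned Cu 1 (-2.28), against Turned Ti without Turned Cu 1 or 3 (-2.25 to -2.12), and against SLA Ti without SLA Ti 1 (-2.28). Without Turned Cu 4 the values were -3.75 against Sham, -3.72 against Turned Ti and -4.52 against SLA Ti.

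GSTZ1, which acts in tyrosine breakdown as maleylacetoacetate isomerase, averaged 0.447 ± 0.412 CPM in Turned Cu and 1.37 ± 0.226 CPM in Sham (SD, n = 4 each). Its log2 fold change was -1.64 ± 0.51 against Sham, -1.28 ± 0.51 against Turned Ti and -1.17 ± 0.51 against SLA Ti (SE). GSTZ1 was called lower against Sham and did not pass against Turned Ti or SLA Ti (edgeR adjusted p = 0.0542 and 0.0907). No Turned Cu library reached 10 counts, so GSTZ1 passed the filter on low counts through the other groups. The Sham call is therefore a description and is given no p. Without Turned Cu 4, GSTZ1 was at -2.54 against Sham, and the other fits that left out 1 library gave -1.85 to -1.51. Leaving out 1 library brought it past the threshold against Turned Ti in 9 of 16 fits, at -2.15 to -1.43 (without Turned Cu 1 or 4, SLA Ti 2, 3 or 4, Turned Ti 4, or Sham 1, 3 or 4), and against SLA Ti without Turned Cu 4 or SLA Ti 3, at -2.07 to -1.47. The mu-class GSTM3 did not pass against any group. Library by library, GSTM3 was at 13.1, 18.3, 10.1 and 17.0 CPM in Turned Cu, 15.7, 9.77, 16.9 and 11.7 CPM in SLA Ti, 15.4, 15.5, 20.7 and 9.95 CPM in Turned Ti and 23.0, 15.5, 22.4 and 18.3 CPM in Sham. The groups overlapped, and its log2 fold change was -0.44 ± 0.28 against Sham (SE; edgeR adjusted p = 0.226), -0.61 with DESeq2 (adjusted p = 0.0444) and -0.63, past the threshold, without Turned Ti 4. GSTM2, its neighbour in the mu class, had log2 fold changes of 0.66 ± 0.40 against Sham, 0.94 ± 0.40 against Turned Ti and 0.44 ± 0.40 against SLA Ti (SE), none past the threshold. The annotations of these genes overlap on opposite strands of chromosome 13, GSTM2 at 54454559 to 54542184 and GSTM3 at 54401015 to 54516790 in the deposited table, for which the sources used here name no genome build. MGST3, a membrane transferase related to leukotriene C4 synthase, had log2 fold changes of -0.20 ± 0.52, -0.91 ± 0.52 and -0.45 ± 0.52 against Sham, Turned Ti and SLA Ti (SE), none past the threshold. Without Turned Cu 4 or Turned Ti 4, MGST3 passed as lower against Turned Ti, at -1.48 to -1.32. Close copies within the transferase classes may share reads, so the split between them is uncertain.

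GPX7 and GPX8 are glutathione peroxidase relatives of the endoplasmic reticulum that pass the oxidising power of peroxide to protein folding, and both were lower around copper. The CPM of GPX7 were 1.44, 1.56, 1.53 and 2.75 in Turned Cu, 8.25, 14.2, 10.4 and 6.40 in SLA Ti, 11.6, 12.2, 25.0 and 7.38 in Turned Ti and 15.8, 16.4, 16.8 and 14.0 in Sham. All copper libraries lay below the other 12, whose lowest was SLA Ti 4 at 6.40 CPM. GPX7 had log2 fold changes of -3.12 ± 0.39 against Sham, -2.96 ± 0.39 against Turned Ti and -2.44 ± 0.39 against SLA Ti (SE; edgeR adjusted p = 2.53e-05, 4.53e-05 and 0.000385), which put it 8.68-fold lower than in Sham. GPX8 had 0.861, 3.90, 2.04 and 2.58 CPM in Turned Cu 1 to 4, 4.45, 10.3, 10.6 and 5.11 CPM in SLA Ti, 10.6, 8.37, 23.8 and 6.38 CPM in Turned Ti and 14.2, 17.0, 16.0 and 11.5 CPM in Sham. Copper again lay below every other library, with SLA Ti 1 nearest at 4.45 CPM. GPX8 had log2 fold changes of -2.67 ± 0.48 against Sham, -2.42 ± 0.48 against Turned Ti and -1.72 ± 0.47 against SLA Ti (SE; edgeR adjusted p = 0.000317, 0.000756 and 0.0115).

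PRDX4, the peroxiredoxin of the endoplasmic reticulum, and TXNDC5, a protein disulfide isomerase of the same compartment, were lower as well. Values for PRDX4 were 1.44, 2.34, 1.27 and 1.89 CPM in Turned Cu 1 to 4, beside 1.84, 6.32, 5.86 and 3.05 CPM in SLA Ti, 7.05, 5.32, 14.1 and 2.90 CPM in Turned Ti and 5.30, 8.48, 6.43 and 4.42 CPM in Sham. SLA Ti 1, at 1.84 CPM, fell within the copper range, and the Turned Ti and Sham libraries were above it. PRDX4 had log2 fold changes of -1.83 ± 0.49 against Sham, -2.10 ± 0.49 against Turned Ti and -1.32 ± 0.49 against SLA Ti (SE; edgeR adjusted p = 0.00618, 0.00255 and 0.0489). The SLA Ti call was lost in 6 of 16 fits that left out 1 library (Turned Cu 1 or 3, SLA Ti 2 or 3, Turned Ti 2, Sham 2), at -1.46 to -1.24, and with the rabbit as a block, at -1.19 (adjusted p = 0.0501). ACOT9 overlaps PRDX4 on the opposite strand. Library by library, TXNDC5 was at 3.45, 11.7, 9.17 and 15.2 CPM in Turned Cu, 20.9, 45.7, 24.4 and 27.7 CPM in SLA Ti, 24.9, 39.1, 42.3 and 22.0 CPM in Turned Ti and 39.3, 51.7, 30.3 and 34.3 CPM in Sham. Each copper library lay below every other library. TXNDC5 had log2 fold changes of -1.98 ± 0.40 against Sham, -1.71 ± 0.39 against Turned Ti and -1.59 ± 0.39 against SLA Ti (SE; edgeR adjusted p = 0.000726, 0.00238 and 0.00642). These 4 genes moved in the same direction as the osteoblast and fibroblast marker sums, whose part in the result was not tested.

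**Figure D3:**
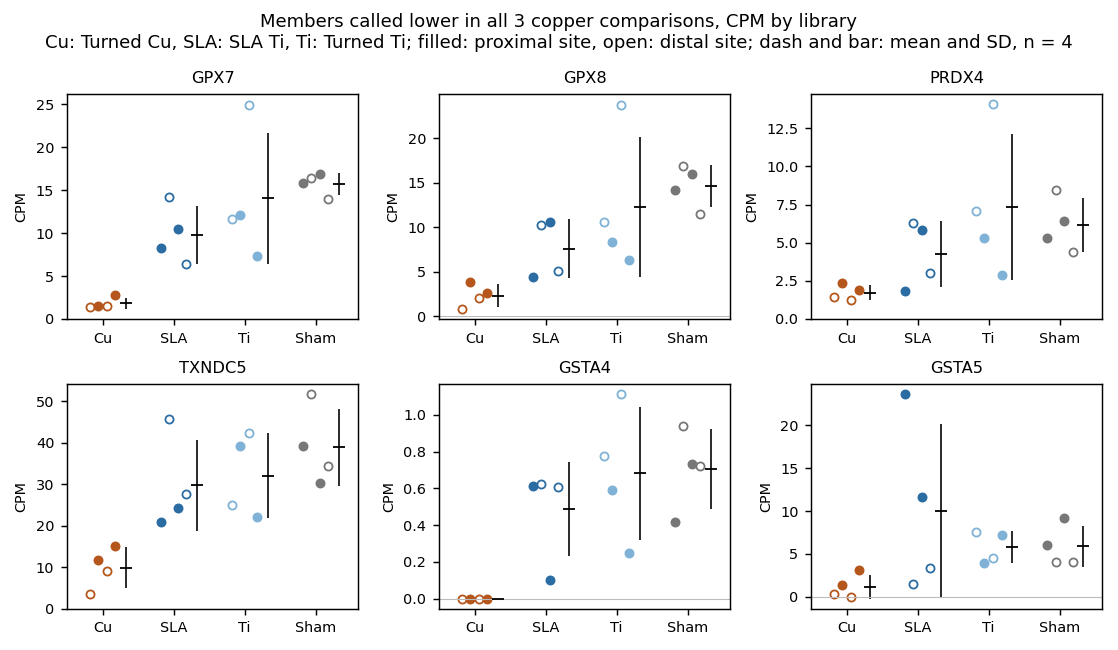
CPM (y axis) by library for the members lower in Turned Cu against Sham, Turned Ti and SLA Ti, with the mean and SD of each group of 4 beside its points; filled points are proximal and open points distal sites. GPX7 in copper stays between 1.44 and 2.75 CPM, below every other library, and GSTA4 is at 0 in all 4 copper libraries.

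A few well-known relatives lie outside the symbol rule because the table gives them a description but no symbol, and they were read from those descriptions. GPX1, the main cytosolic glutathione peroxidase and a selenoenzyme, was at 287 to 350 CPM in Turned Cu, 61.1 to 175 CPM in SLA Ti, 45.5 to 124 CPM in Turned Ti and 42.5 to 74.6 CPM in Sham. Copper did not overlap the other groups, and the log2 fold change was 2.38 ± 0.39 against Sham, 2.16 ± 0.39 against Turned Ti and 1.63 ± 0.38 against SLA Ti (SE; edgeR adjusted p = 0.00015, 0.000363 and 0.00459). GPX3, the secreted peroxidase of plasma, was at 0 to 0.390 CPM in Turned Cu and 0.807 to 5.82 CPM in Sham. SOD3, the extracellular dismutase, was at 0 to 0.172 CPM in Turned Cu and 1.25 to 5.66 CPM in Sham. Both were lower in Turned Cu, with 0 counts in 2 of its 4 libraries, so no fold is given. No Turned Cu library held more than 2 counts of GPX3 or 1 count of SOD3. Both passed the filter on low counts through the other groups, so these values are a description and are given no p.

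Proteins with a thioredoxin domain went both ways, and some of them are named for the domain alone. TXNL1, a cytosolic protein found with the proteasome, had the smallest p of the group against Sham. The CPM of TXNL1 were 16.2, 25.2, 11.5 and 25.3 in Turned Cu, 2.73, 5.20, 5.60 and 4.57 in SLA Ti, 9.70, 5.46, 8.32 and 4.15 in Turned Ti and 5.36, 6.19, 7.72 and 4.30 in Sham. All copper libraries were above the other 12, the proximal ones at 25.2 and 25.3 CPM. TXNL1 had log2 fold changes of 1.73 ± 0.35 against Sham, 1.49 ± 0.34 against Turned Ti and 2.11 ± 0.35 against SLA Ti (SE; edgeR adjusted p = 0.000712, 0.00224 and 0.000512). Without Turned Cu 2 and 4 together, it missed the threshold against Turned Ti, at 0.95 (adjusted p = 0.0503).

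TXNL4A, which belongs to the spliceosome and not to redox defence, had log2 fold changes of 1.65 ± 0.36, 1.96 ± 0.36 and 1.5 ± 0.36 against Sham, Turned Ti and SLA Ti (SE; edgeR adjusted p = 0.00141, 0.000458 and 0.00514). Its CPM ran from 9.42 to 17.6 in Turned Cu and from 3.34 to 5.14 in Sham, and SLA Ti 3, at 9.46 CPM, overlapped Turned Cu 3. TXNDC12, a small thioredoxin-like protein of the endoplasmic reticulum, was higher around copper. TXNDC12 had 9.76, 3.32, 7.26 and 4.82 CPM in Turned Cu 1 to 4, 1.5, 2.04, 5.24 and 1.3 CPM in SLA Ti, 2.10, 1.13, 2.98 and 0.912 CPM in Turned Ti and 1.91, 2.02, 1.96 and 1.81 CPM in Sham. SLA Ti 3 overlapped copper, and the Turned Ti and Sham libraries lay below it. TXNDC12 had log2 fold changes of 1.72 ± 0.48 against Sham, 1.80 ± 0.47 against Turned Ti and 1.32 ± 0.47 against SLA Ti (SE; edgeR adjusted p = 0.00784, 0.00576 and 0.0395). The call against SLA Ti was lost in 12 of 16 fits that left out 1 library, at 0.88 to 1.32 (kept without Turned Cu 2, SLA Ti 3, Turned Ti 2 or Turned Ti 3), and that against Sham without Turned Cu 1, at 1.27.

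TXNDC11, an endoplasmic reticulum protein that binds dual oxidases, was higher by 0.64 ± 0.24 against Sham and 0.74 ± 0.24 against Turned Ti and did not pass against SLA Ti, at 0.52 ± 0.23 (log2 fold change and SE; edgeR adjusted p = 0.038, 0.0181 and 0.102). All copper libraries, at 10.3 to 12.8 CPM, lay above all Sham libraries, at 5.75 to 9.69 CPM. The Sham call was lost in 12 of 16 fits that left out 1 library, at 0.36 to 0.56 (kept without SLA Ti 1, Turned Ti 2, Turned Ti 3 or Sham 2), and the Turned Ti call in 11 of 16, at 0.48 to 0.69 (kept without those libraries or Turned Cu 2). Of the 16 fits, 12 also moved the median log2 fold change of all genes by more than 0.1. These shifts were up to -0.20 against Sham, -0.18 against Turned Ti and -0.19 against SLA Ti (all without Turned Cu 4). Some lost calls of SOD1, NFE2L2 and KEAP1 come from fits outside these 12. Without Sham 2, SOD1 and KEAP1 lost their Sham calls, and without Turned Ti 2 or 3, NFE2L2 lost its Turned Ti call. SOD1 kept its Sham call without Turned Cu 1, a fit among the 12. The part of the median's shift in the lost calls was not tested. TXNDC16 was at 0 to 0.390 CPM in Turned Cu, 0.381 to 1.35 CPM in SLA Ti, 0.746 to 1.49 CPM in Turned Ti and 0.245 to 1.21 CPM in Sham. Its log2 fold change was -2.21 ± 0.67 against Turned Ti and -1.91 ± 0.67 against SLA Ti, both counted above as lower, and -1.25 ± 0.71 against Sham, which did not pass (SE; edgeR adjusted p = 0.166). TXNDC16 passed the filter on low counts only through SLA Ti and Turned Ti, so the values against them are a description and are given no p. The SLA Ti call was lost without Turned Cu 1, 3 or 4, or SLA Ti 1 or 2, at -2.21 to -1.67. TXNDC15 did not pass in any comparison, at -0.73 ± 0.52 against Sham (log2 fold change and SE), though it did without Sham 3, at -1.26.

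SOD1 turns superoxide into peroxide in the cytosol, and catalase breaks peroxide down in peroxisomes. Both were higher than in Sham, and neither call held without the proximal copper libraries. Values for CAT were 19.0, 42.3, 19.2 and 44.4 CPM in Turned Cu 1 to 4, beside 34.5, 16.0, 22.2 and 23.5 CPM in SLA Ti, 21.7, 11.7, 16.2 and 22.2 CPM in Turned Ti and 10.7, 11.3, 15.3 and 13.8 CPM in Sham. Turned Cu 2 and 4 were at more than 40 CPM, and Turned Cu 1 and 3, at 19.0 and 19.2 CPM, lay within the SLA Ti and Turned Ti ranges but above all Sham libraries. CAT had log2 fold changes of 1.28 ± 0.34 against Sham, which passed, and of 0.80 ± 0.34 against Turned Ti and 0.38 ± 0.33 against SLA Ti, which did not (SE; edgeR adjusted p = 0.00567, 0.0669 and 0.421). Without Turned Cu 2 and 4 together, it was 0.51 against Sham (adjusted p = 0.213).

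Library by library, SOD1 was at 7.61, 17.0, 12.0 and 17.2 CPM in Turned Cu, 8.67, 8.13, 7.87 and 6.71 CPM in SLA Ti, 9.54, 7.38, 8.35 and 5.31 CPM in Turned Ti and 7.03, 5.92, 9.98 and 8.36 CPM in Sham. Turned Cu 1 lay inside the range of every other group, and without Turned Cu 2 and 4 together the log2 fold change against Sham was 0.26 (edgeR adjusted p = 0.489). Over all libraries, SOD1 had log2 fold changes of 0.77 ± 0.28 against Sham, 0.81 ± 0.28 against Turned Ti and 0.77 ± 0.28 against SLA Ti (SE; edgeR adjusted p = 0.0367, 0.0309 and 0.047). The Sham call was lost in 12 of 16 fits that left out 1 library, at 0.47 to 0.70, and was kept without Turned Cu 1, SLA Ti 1, Turned Ti 2 or Turned Ti 3. Against Turned Ti it was lost in 12 of the 16 fits, at 0.51 to 0.84 (kept without Turned Cu 1, SLA Ti 1, Turned Ti 1 or Sham 2), and against SLA Ti in 15, at 0.47 to 0.81 (kept without Turned Cu 1). With the rabbit as a block it did not pass in any of the 3 (adjusted p = 0.0589, 0.0534 and 0.0728). SCAF4 overlaps SOD1 on the opposite strand of chromosome 14 and held 2993 counts in all, against 2323 for SOD1.

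The glutaredoxins GLRX3 and GLRX5, which handle iron-sulfur clusters, did not pass in any comparison. The CPM of GLRX5 were 1.72, 2.15, 1.40 and 3.27 in Turned Cu, 2.65, 1.48, 1.59 and 2.67 in SLA Ti, 1.52, 1.97, 1.26 and 2.07 in Turned Ti and 1.55, 0.538, 1.53 and 1.73 in Sham. All groups overlapped, and the log2 fold change of GLRX5 was 0.62 ± 0.40 against Sham, 0.32 ± 0.39 against Turned Ti and 0.02 ± 0.39 against SLA Ti (SE; edgeR adjusted p = 0.226, 0.543 and 0.978). GLRX3 had 4.31, 11.3, 4.07 and 11.9 CPM in Turned Cu 1 to 4, 5.56, 6.74, 5.14 and 6.25 CPM in SLA Ti, 6.66, 7.48, 7.17 and 4.31 CPM in Turned Ti and 7.75, 5.65, 7.78 and 6.11 CPM in Sham. The proximal Turned Cu 2 and 4 were the highest of all 16 libraries, and the distal Turned Cu 1 and 3 were the lowest, with Turned Ti 4 level with Turned Cu 1. The log2 fold change of GLRX3 was 0.20 ± 0.34 against Sham (SE; edgeR adjusted p = 0.67), and it turned to -0.77, past the threshold (adjusted p = 0.0388), when Turned Cu 2 and 4 were left out together.

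**Figure D4:**
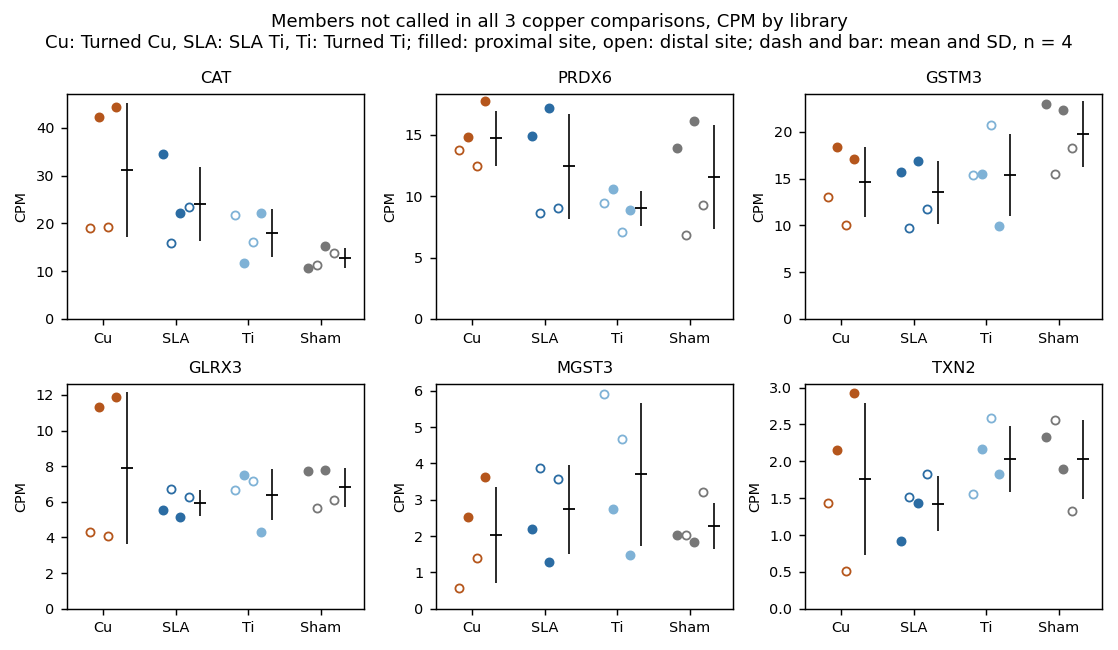
CPM (y axis, from 0) by library for 6 members that did not pass in every copper comparison, with the mean and SD of each group of 4 beside its points; filled points are proximal and open points distal sites. In CAT and GLRX3 the proximal copper sites stand apart from the distal ones, with GLRX3 at 11.3 and 11.9 CPM against 4.31 and 4.07 CPM.

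Of the regulators and their best-known target, NQO1, a quinone reductase widely read as a marker of NFE2L2 activity, changed most. Values for NQO1 were 6.6, 10.3, 5.35 and 9.98 CPM in Turned Cu 1 to 4, beside 4.11, 2.04, 2.57 and 2.21 CPM in SLA Ti, 3.14, 2.46, 3.05 and 1.74 CPM in Turned Ti and 2.09, 1.21, 2.88 and 2.53 CPM in Sham. All copper libraries lay above the rest, where SLA Ti 1 was the highest at 4.11 CPM. NQO1 had log2 fold changes of 1.86 ± 0.35 against Sham, 1.62 ± 0.34 against Turned Ti and 1.55 ± 0.34 against SLA Ti (SE; edgeR adjusted p = 0.000402, 0.00121 and 0.00304). NFE2L2 itself, which is regulated mainly through its protein's stability, was higher by a smaller amount. Library by library, NFE2L2 was at 35.0, 35.9, 25.2 and 27.2 CPM in Turned Cu, 22.8, 16.1, 32.1 and 22.6 CPM in SLA Ti, 21.8, 15.3, 18.5 and 21.4 CPM in Turned Ti and 15.4, 17.0, 19.0 and 14.6 CPM in Sham. Copper lay above Turned Ti and Sham and overlapped SLA Ti through SLA Ti 3, at 32.1 CPM. NFE2L2 was higher against Sham (0.90 ± 0.25, edgeR adjusted p = 0.00738) and Turned Ti (0.68 ± 0.25, adjusted p = 0.0365), and did not pass against SLA Ti (0.40 ± 0.25, adjusted p = 0.234; log2 fold change and SE). Without Turned Cu 1, Sham 1 or Sham 4 the Sham call was lost, at 0.62 to 0.69, and 14 of 16 such fits lost the Turned Ti call, at 0.42 to 0.65 (kept without SLA Ti 1 or Sham 2). AGPS overlaps NFE2L2 on the opposite strand of chromosome 7, with 2468 counts against 5602 for NFE2L2.

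KEAP1, the adaptor that marks NFE2L2 for degradation, was near the threshold. The CPM of KEAP1 were 19.4, 12.3, 11.8 and 12.6 in Turned Cu, 9.52, 7.37, 10.4 and 9.98 in SLA Ti, 7.24, 8.32, 8.79 and 10.5 in Turned Ti and 9.83, 6.06, 8.76 and 10.5 in Sham. Copper lay above all other libraries, with Turned Cu 1 well above its own group. KEAP1 had log2 fold changes of 0.67 ± 0.25 against Sham and 0.69 ± 0.25 against Turned Ti, which passed, and of 0.59 ± 0.25 against SLA Ti, which did not (SE; edgeR adjusted p = 0.0396, 0.0358 and 0.0802). The Sham call was kept in only 1 of 16 fits that left out 1 library (without Turned Ti 2), the other fits giving 0.28 to 0.66, and the Turned Ti call was lost in 14 of 16, at 0.31 to 0.68 (kept without SLA Ti 1 or Sham 2). NQO2, a related reductase that uses another cofactor, did not pass, at 0.11 ± 0.43 against Sham, 0.37 ± 0.43 against Turned Ti and 0.84 ± 0.43 against SLA Ti (log2 fold change and SE).

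Other genes of these pathways were counted in lists, each with the number that passed in Turned Cu against Sham. Of 12 further NFE2L2 targets tested, 4 were higher and 1 was lower, where 23.2% of all genes passed as higher and 19.6% as lower. HMOX1, the haem-degrading oxygenase, had a log2 fold change of 5.73 ± 0.74, PIR of 2.77 ± 0.59, OSGIN1, an oxidative stress response gene, of 2.24 ± 0.49, and SLC48A1, a haem transporter, of 1.98 ± 0.65 (SE; edgeR adjusted p = 2.96e-05, 0.00116, 0.00132 and 0.0212). The one lower was CBR3, a carbonyl reductase, at -2.25 ± 0.80 (SE; adjusted p = 0.0316). Against Turned Ti 3 of the 12 were higher and 0 lower (21.1% and 19.6% of all genes), and against SLA Ti 4 were higher and 0 lower (15.3% and 15.7%).

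Of 14 partners and regulators of NFE2L2 tested, 6 were higher and 0 lower against Sham, against Turned Ti and against SLA Ti, where the higher and lower shares of all genes were 23.2% and 19.6%, 21.1% and 19.6%, and 15.3% and 15.7%. MAFF, a small MAF protein that pairs with NFE2L2 or BACH1 on DNA, averaged 23.3 ± 3.67 CPM in Turned Cu and 0.163 ± 0.0816 CPM in Sham (SD, n = 4 each). Its counts in Sham are too few for a fold or a p. BACH1, the repressor that competes at the same sites, had a log2 fold change against Sham of 2.73 ± 0.38. SQSTM1, the autophagy adaptor that binds KEAP1, was at 2.96 ± 0.48, and ATF3, a stress-induced transcription factor, at 3.87 ± 0.68 (SE). The edgeR adjusted p was 4.83e-05 for BACH1, 0.000139 for SQSTM1 and 0.000258 for ATF3.

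Of 14 genes of glutathione turnover and transport tested, 2 were higher and 4 lower against Sham (23.2% and 19.6% of all genes), 3 higher and 3 lower against Turned Ti (21.1% and 19.6%), and 3 higher and 3 lower against SLA Ti (15.3% and 15.7%). SLC3A2, the heavy chain of the cystine importer and of other amino acid transporters, averaged 253 ± 73.9 CPM in Turned Cu and 13.5 ± 2.26 CPM in Sham (SD, n = 4 each), a log2 fold change of 4.22 ± 0.58 (SE). ABCC1, which exports glutathione conjugates, was at 1.99 ± 0.33. GGT5, a gamma-glutamyl transferase, was at -3.04 ± 0.72, and ANPEP, the aminopeptidase that acts on its products, at -1.99 ± 0.65 (log2 fold change and SE; edgeR adjusted p = 4.03e-05 for SLC3A2, 0.000149 for ABCC1, 0.00268 for GGT5 and 0.0202 for ANPEP).

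The shares of all genes higher and lower, beside which the next 3 lists stand, were 23.2% and 19.6% against Sham, 21.1% and 19.6% against Turned Ti, and 15.3% and 15.7% against SLA Ti. Among 12 genes of NADPH supply, 4 were higher and 3 lower against Sham, 3 and 3 against Turned Ti, and 3 and 1 against SLA Ti. NADK, which makes NADP, was at 2.45 ± 0.28 and PGD, an enzyme of the pentose phosphate pathway, at 1.84 ± 0.40, while ALDH1L2, a mitochondrial folate enzyme, was at -3.04 ± 0.75 (log2 fold change against Sham and SE; edgeR adjusted p = 1.69e-05, 0.0013 and 0.0035). Of 9 genes of superoxide-producing oxidases tested, 4 were higher and 0 lower against Sham, 4 and 3 against Turned Ti, and 2 and 2 against SLA Ti. NCF4 was at 2.91 ± 0.60, RAC1 at 1.23 ± 0.26 and RAC2 at 2.60 ± 0.60 (log2 fold change against Sham and SE; edgeR adjusted p = 0.00085, 0.0011 and 0.00201). NCF4 and RAC2 serve the phagocyte oxidase, and the neutrophil and macrophage sums were higher in the same libraries; their part was not tested. Of 12 methionine sulfoxide reductases and selenoprotein genes, 4 were higher and 2 lower against Sham, 3 and 4 against Turned Ti, and 2 and 2 against SLA Ti. SELENOM was at -2.21 ± 0.37, the methionine sulfoxide reductase MSRA at 2.69 ± 0.48, SEPHS1 at -1.0 ± 0.24 and SELENOK at 2.45 ± 0.59 (log2 fold change against Sham and SE; edgeR adjusted p = 0.000169, 0.000298, 0.00243 and 0.00282).

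Levels of different genes were compared only per length, as the authors' TPM, and only within a group, since the mitochondrial share enters TPM. In Turned Cu the highest median TPM among members belonged to TXNIP (172), TXN (100.3), MGST1 (24.4) and GSTO1 (18.5). In SLA Ti they were TXNIP (83.5), TXN (66.1), GSTM3 (40.9) and PRDX6 (35.3), and in Turned Ti TXN (54.8), GSTM3 (51.5), TXNIP (39.7) and TXNDC5 (27.5). In Sham, GSTM3 (38.0), TXN (28.6), TXNIP (28.1) and PRDX6 (21.7) led. In Turned Cu, TXNIP ranged from 49.6 to 413 TPM and TXN from 76.7 to 184 TPM, and these ranges overlapped.

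Within copper, the proximal and distal libraries differed. In every group, the proximal and distal sites come from different rabbits. Both proximal copper libraries (Turned Cu 2 and 4) lay above both distal ones (Turned Cu 1 and 3) for 21 of 36 members, or 58.3%, against 28.4% of all genes, and below them for 4 members, or 11.1%, against 23.7% of all genes. GCLC, TXNDC11, TXNDC12 and TXNIP were those 4. In Turned Ti the order was the other way, with proximal above distal for 3 members and below for 15, where 20.5% and 28.0% of all genes did so. In SLA Ti it was above for 9 and below for 5 members (18% and 15.7% of all genes), and in Sham above for 7 and below for 3 (17.3% and 11.4%). Turned Cu 2 and 4 are also the libraries richest in mitochondrial transcripts, and they come from other rabbits than Turned Cu 1 and 3. The end of the bone, the rabbit and the mitochondrial share cannot be told apart within copper. Among distal sites alone, 13 members were higher and 7 lower in Turned Cu against Sham, with 4538 genes called in all. Among proximal sites alone the numbers were 10 and 3, with 1932 genes. Each fit rests on 2 libraries per group, and its Turned Cu and Sham libraries come from different rabbits. With the end of the tibia as a term over all libraries, the numbers were 19 and 7, with 4938 genes.

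Between titanium and Sham, and between both titanium surfaces, edgeR called 0 members and 0 of all 11617 genes (0.0% in each comparison). An unadjusted p under 0.05 was reached by 4 members and 1660 genes in SLA Ti against Sham, by 1 member and 1048 genes in SLA Ti against Turned Ti, and by 0 members and 290 genes in Turned Ti against Sham. DESeq2 called 1 member and 353 genes in SLA Ti against Sham, 0 members and 105 genes in SLA Ti against Turned Ti, and 0 members and 0 genes in Turned Ti against Sham. A p that misses the threshold does not show that the groups were alike. The median log2 fold change of the members was 0.13 in SLA Ti against Sham, 0.05 in SLA Ti against Turned Ti and 0.01 in Turned Ti against Sham, beside -0.0015, -0.004 and 0.04 for all genes.

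MGST1 had the log2 fold change farthest from 0 of all members in these comparisons. Its SLA Ti libraries, at 1.88 to 16.9 CPM, all lay above the Sham libraries, at 0.477 to 1.49 CPM. The log2 fold change was 2.77 ± 0.61 in SLA Ti against Sham (SE), which did not pass. It passed by DESeq2, with no filter on low counts, and without SLA Ti 2, at 3.08. As MGST1 reached 10 counts in at least 3 libraries of every group but Sham, these values are a description and are given no p. MGST1 was at 1.82 ± 0.57 in SLA Ti against Turned Ti (log2 fold change and SE; edgeR adjusted p = 0.332). In Turned Ti against Sham it was at 0.95 ± 0.60, which did not pass. SLA Ti 3, the highest SLA Ti library for MGST1, was also the highest of all libraries in summed neutrophil markers, at 3150 CPM, and SLA Ti 2, the lowest, had the lowest of the SLA Ti group, at 436 CPM; the part of these cells was not tested.

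CAT, TXNIP and GPX8 were the other members with an unadjusted p under 0.05 in SLA Ti against Sham. CAT was at 16.0 to 34.5 CPM in SLA Ti and 10.7 to 15.3 CPM in Sham, with all SLA Ti libraries above Sham, and its log2 fold change was 0.91 ± 0.34 (SE; edgeR adjusted p = 0.214). TXNIP overlapped between the groups, at 1.13 ± 0.47 (SE; adjusted p = 0.276). GPX8 was at 4.45 to 10.6 CPM in SLA Ti and 11.5 to 17.0 CPM in Sham, with all SLA Ti libraries below Sham, at -0.94 ± 0.43 (SE; adjusted p = 0.328). All SLA Ti libraries lay above all Sham libraries for 2 members and below them for 1, where 4.05% and 3.65% of all genes did so. In SLA Ti against Turned Ti and in Turned Ti against Sham, 0 members were separated in either direction, beside 1.12% and 1.33%, and 0.654% and 0.482% of all genes.

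**Figure D5:**
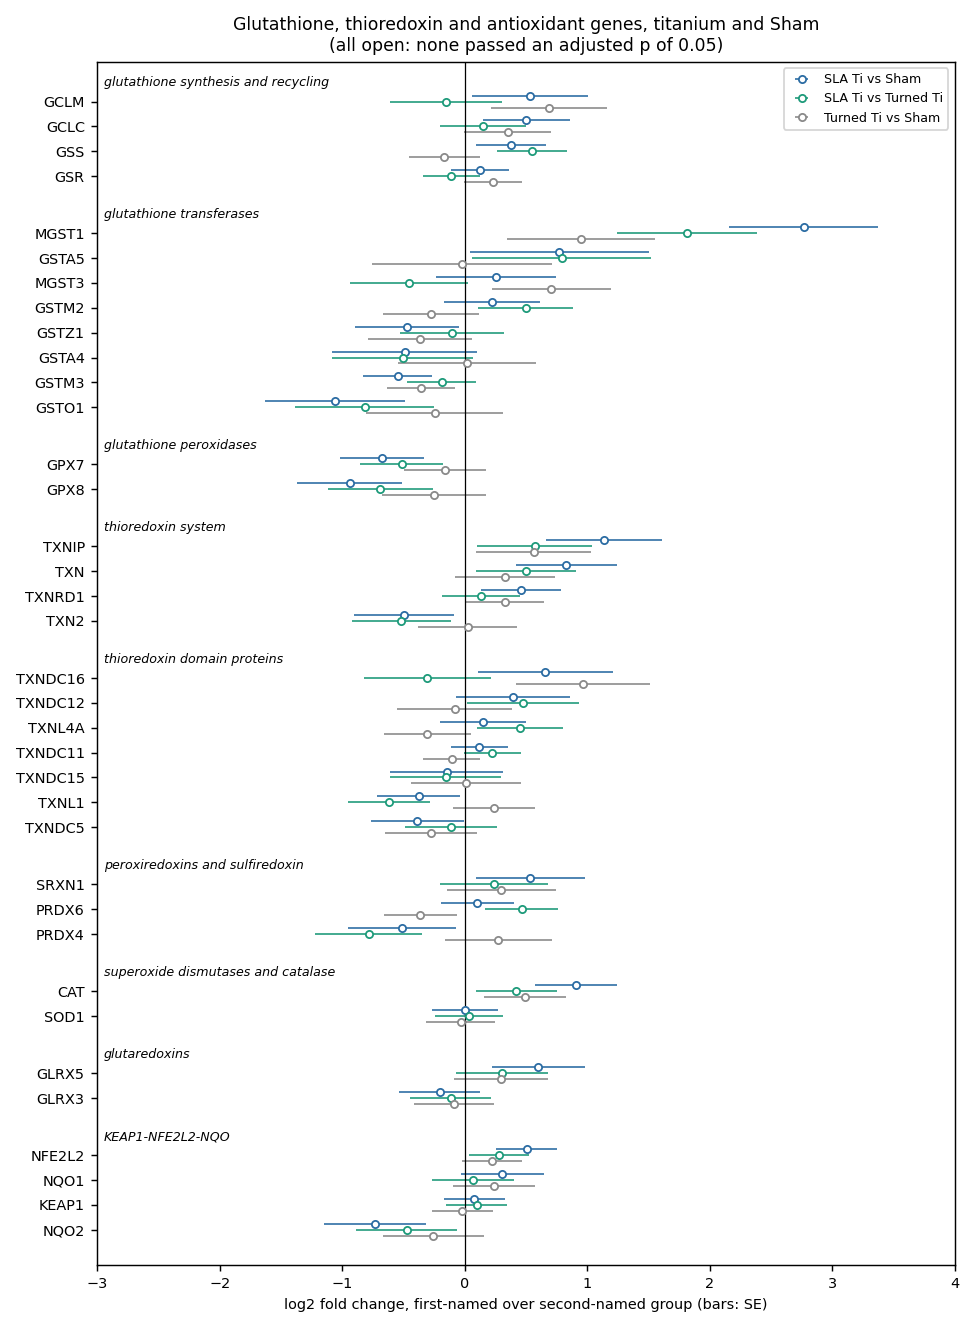
Log2 fold change (x axis, with its SE as a bar) of the 36 members tested in SLA Ti against Sham, SLA Ti against Turned Ti and Turned Ti against Sham, grouped by role; open points did not pass an adjusted p of 0.05. Most members lie within 1 of 0, and MGST1 lies farthest out, at 2.77 in SLA Ti against Sham.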

How the data were processed

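Total RNA from 16 tibial sites was made into stranded total RNA libraries and sequenced in pairs, per the labels' protocols. The authors deposited a gene table with estimated counts and TPM for each library; STAR 2.7.1a and Cufflinks 2.2.1 are named per the submitters' processing notes, with no role. The genome build, the counting step and whether it used strand are not given in the sources used here. The deposited estimated counts are whole numbers and needed no rounding. The authors' TPM served only to order genes within a group.

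Counts were tested with edgeR 4.0.16 (limma 3.58.1, R 4.3.3): filterByExpr with a minimum count of 10 kept 11617 genes, libraries were scaled by TMM, and a quasi-likelihood model with a term per group was fitted over all 16 libraries (common dispersion 0.206). P-values were adjusted by Benjamini-Hochberg over all genes, with 0.05 as the threshold, and the SE is the log2 fold change over the root of the F statistic. The code was checked on simulated counts. DESeq2 1.42.0, RLE scaling, no filter, the rabbit as a block, leaving out abundant RNA classes, library groups or each library were alternatives.

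Replicate numbers are rabbits, so samples with the same number come from the same animal. Deviations from the group means correlated at -0.167 to 0.316 in the 24 same-rabbit pairs (median 0.105) and at -0.556 to 0.434 in the 72 other pairs (median -0.016). Within a group each library comes from another rabbit, and the sites lie at both ends of the tibia. The spread of a group therefore mixes rabbit and end of the tibia.

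The members, roles and pathway and marker lists were chosen with earlier results of these data known. Any member could be named. Values in every library were due for the member of lowest p in Turned Cu against Sham in each role, and for members that did not pass where a role is described; further members are given after their values were seen. Up to 4 genes of smallest p in Turned Cu against Sham were named per pathway list, some of which are not reported here, and CBR3, GPX1, GPX3 and SOD3 were named after their values were seen. Promoter and protein sequences, and the search for antioxidant response elements in promoters, were not used here.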

Additional observations from a re-analysis of the deposited data

Results flagged for a closer look

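In 11 of 144 sets of 4 libraries (36 members in 4 groups), 1 library stood far from the other 3 by Dixon's criterion, which chance gives in about 1 of 20 sets. In Turned Cu, KEAP1 was highest in library 1 at 19.4 CPM and GPX7 in library 4 at 2.75 CPM. In SLA Ti, GSTA4 was lowest in library 3 at 0.103 CPM. Turned Ti 4, which is rich in ribosomal RNA, was the highest of its group for GCLM at 3.48 CPM and the lowest for GSR at 3.57 CPM, GSTM2 at 0.746 CPM and TXNDC15 at 0.663 CPM. Turned Ti 1 was the highest of its group for TXNIP at 79.4 CPM. In Sham, GLRX5 was lowest in library 2, the richest of all in ribosomal RNA, at 0.538 CPM, TXN was highest in library 3 at 13.7 CPM, and MGST3 was highest in library 4 at 3.22 CPM. The part of ribosomal RNA in these values was not tested.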

How the results depend on the processing

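Among members, 11 of 19 higher and 6 of 7 lower in Turned Cu against Sham kept their call in all 23 alternative fits listed in the methods, as did 11 of 18 and 6 of 7 against Turned Ti, and 9 of 14 and 4 of 7 against SLA Ti. The lower members kept include GSTA4 in all 3 comparisons, GSTZ1 against Sham and TXNDC16 against Turned Ti, and the higher ones include MGST1 against Sham. Those values are a description only, because of the filter on low counts. GLRX3 stood at -0.77 in Turned Cu against Sham without Turned Cu 2 and 4, and at 0.20 with them. Leaving out 1 library gave 14 to 19 members higher, 6 to 8 lower and 4525 to 5283 genes called against Sham; 14 to 18, 6 to 9 and 4111 to 5043 against Turned Ti; and 10 to 13, 5 to 7 and 2659 to 4049 against SLA Ti. It gave 0 to 198 genes in SLA Ti against Sham (32 without SLA Ti 1, 198 without SLA Ti 2) with 0 to 1 members higher, and 0 to 36 in SLA Ti against Turned Ti (36 without SLA Ti 2). DESeq2 and the unfiltered test called 353 and 195 genes in SLA Ti against Sham, with 1 member higher in each, and 105 and 87 in SLA Ti against Turned Ti, where the rabbit block called 1. With the rabbit as a block, the members higher and lower in Turned Cu were 17 and 7 against Sham, 16 and 7 against Turned Ti and 13 and 6 against SLA Ti: TXNDC11 against Sham (adjusted p = 0.0564), NFE2L2 against Turned Ti (0.0523), PRDX4 against SLA Ti and SOD1 in all 3 were lost, and no other member's call changed. RLE scaling moved the median log2 fold change of all genes by -0.15 in Turned Cu against Sham, -0.12 against Turned Ti and -0.11 against SLA Ti; relative to that median, the members' median against Sham was 0.73 under both scalings, and KEAP1, TXNDC11 and SOD1 no longer passed against Sham under RLE. Leaving out 1 library moved the all-gene median by more than 0.1 in 12 of 16 fits in each copper comparison, by up to -0.20 against Sham, -0.18 against Turned Ti and -0.19 against SLA Ti. Alternatives on the end of the tibia were chosen after seeing the data. Proximal sites alone gave 10 members higher, 3 lower and 1932 genes against Sham, 8, 1 and 1369 against Turned Ti, and 4, 2 and 681 against SLA Ti. Without Turned Cu 1 and 3, 14 members were higher, 4 lower and 3692 genes called against Sham, 13, 6 and 3280 against Turned Ti, and 11, 3 and 2141 against SLA Ti. Both leave 2 copper libraries. At proximal sites, copper shares its rabbits with Turned Ti, while SLA Ti and Sham come from the other rabbits. Beyond that, the cause was not tested.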
